A study of Mus musculus with 12 samples.

Results

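Chemokines are small secreted proteins that direct leukocyte movement, and the genes described here are 9 of the mouse CC chemokine genes together with Cx3cl1, the gene of fractalkine. The 10 genes (Ccl2, Ccl5, Ccl7, Ccl8, Ccl9, Ccl17, Ccl20, Ccl25, Ccl28 and Cx3cl1) were taken by symbol from a table of 55385 gene identifiers, and all 10 were found. They were followed in 12 RNA sequencing libraries, 4 from each of 3 groups of C57BL/6 mouse cells: normal endometrial cells in primary culture (titles coded B6, called normal), the endometrial cancer cells mECC (coded DM) and the endometrial cancer cells HPmECC (coded WT). Myc overexpression in some of the cancer lines is mentioned in the design text, but the labels name no line for it and give no other allele, agent, age or number of clones. Whether the 4 libraries per group stem from different cultures or mice is not labelled, so each p-value measures the spread between libraries, which may be technical.

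Library totals ran from 16332060 to 26873582 counts. Counts were scaled to library size with TMM factors (CPM), and Myc stood at 248 to 302 CPM in HPmECC, 57.2 to 62.1 CPM in mECC and 107 to 117 CPM in normal cells. The summed level of 10 epithelial markers was 7172 to 7528 TPM (the authors' length-scaled unit) in normal cells, 1534 to 1585 TPM in mECC and 351 to 369 TPM in HPmECC, where the epithelial gene Epcam was near 0 (0.340 CPM). In HPmECC 7 of the 10 had at least 10 counts in every library. Among these, Cdh1, Cldn4 and Muc1 were also near 0, at 0.936, 0.527 and 0.543 CPM. The keratin genes Krt7, Krt8, Krt18 and Krt19 were not, at 30.8, 124, 61.0 and 96.4 CPM. In normal cells these keratin genes stood at 1968, 2563, 1918 and 328 CPM. The normal cultures also carried leukocyte markers, at a summed 270 to 292 TPM against 12.2 to 17.3 TPM in mECC and 20.6 to 25.5 TPM in HPmECC. Summed smooth muscle markers (7 genes) ran from 2332 to 2832 TPM in normal cells, from 59.97 to 62.3 TPM in mECC and from 202 to 284 TPM in HPmECC, and mesothelial markers (6 genes) from 370 to 401 TPM, 42.9 to 51.2 TPM and 23.5 to 27 TPM. Summed fibroblast markers (8 genes) were higher in the lines, at 2017 to 2299 TPM in mECC and 2373 to 2545 TPM in HPmECC against 469 to 582 TPM, although 4 of the 8 were higher and 4 lower in each line than in normal cells. The part of these markers' cell types in the differences from normal cells was not tested. In such bulk libraries fewer cells of a type and less RNA per cell cannot be told apart.

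As background, a CC chemokine carries adjacent cysteines near the start of the mature protein, whereas fractalkine carries 3 other residues between them and sits on a mucin-like stalk anchored in the membrane. The proteins act through G protein-coupled receptors on leukocytes: Ccl2, Ccl7 and Ccl8 are monocyte attractants, Ccl5 and Ccl9 bind receptors such as Ccr1, and Ccl17, Ccl20, Ccl25 and Ccl28 are ligands of Ccr4, Ccr6, Ccr9 and Ccr10. In the uterus, chemokines made by epithelium and stroma guide leukocytes into the endometrium, and in tumors Ccl2 and its relatives are known for drawing in monocytes.

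The coding sequences around these cysteines are shown because their spacing divides the family. Each stretch was read 5′ to 3′ on the coding strand from the GENCODE M21 transcripts of GRCm38, and capitals mark the cysteine codons.
Ccl2: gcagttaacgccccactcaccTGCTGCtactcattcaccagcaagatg
Ccl7: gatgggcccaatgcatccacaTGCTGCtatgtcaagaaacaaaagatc
Ccl8: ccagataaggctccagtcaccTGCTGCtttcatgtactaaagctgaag
Ccl5: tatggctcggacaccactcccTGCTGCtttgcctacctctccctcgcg
Ccl9: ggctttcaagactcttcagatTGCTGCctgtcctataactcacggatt
Ccl17: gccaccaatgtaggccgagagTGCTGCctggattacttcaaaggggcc
Ccl20: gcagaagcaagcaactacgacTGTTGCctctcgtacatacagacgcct
Ccl25: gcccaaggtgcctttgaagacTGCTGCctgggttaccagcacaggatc
Ccl28: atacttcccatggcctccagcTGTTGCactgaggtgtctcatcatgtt
Cx3cl1: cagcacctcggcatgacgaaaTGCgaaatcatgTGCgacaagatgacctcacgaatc
All 9 CC genes had 0 codons between the capitals and Cx3cl1 had 3. Ccl2 and Ccl7 had the highest coding identity of the CC pairs, 72.1% over 287 aligned bases with gaps left out. The margin was small, with 71.0% for Ccl2 and Ccl17 and 60.2% for the lowest pair, Ccl9 and Ccl28. Their mRNAs shared no identical run longer than 23 bases, which bears on how reads could be divided between them.

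The levels of the 10 genes, compared per transcript length as TPM, differed in make-up between the groups. Ccl2 held 49.9% ± 1.57 of the summed TPM of the 10 genes in normal cells (SD, n = 4), 30.7% ± 0.807 in mECC and 31.1% ± 2.56 in HPmECC. Ccl7 was the next most abundant in normal cells (21.6% ± 1.44) and in HPmECC (28.9% ± 1.66), while in mECC Cx3cl1 (21.8% ± 2.10) and Ccl9 (21.8% ± 2.21) exceeded Ccl7 (18.4% ± 1.13). Ccl20 held 17.6% ± 1.25 of the sum in normal cells and under 1% in both cancer lines. Ccl5 held 8.41% ± 0.998 in HPmECC, 0.922% ± 0.464 in mECC and 0.550% ± 0.297 in normal cells. The 10 genes summed to 209 to 239 TPM in normal cells, to 138 to 150 TPM in mECC and to 249 to 292 TPM in HPmECC. These sums carry no TMM factor, which was 0.9007 to 0.9075 in normal cells, 1.061 to 1.076 in mECC and 1.03 to 1.042 in HPmECC. Differences in the sums between the lines and normal cells therefore include a shift in scale, and they were not tested.

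**Figure D1:**
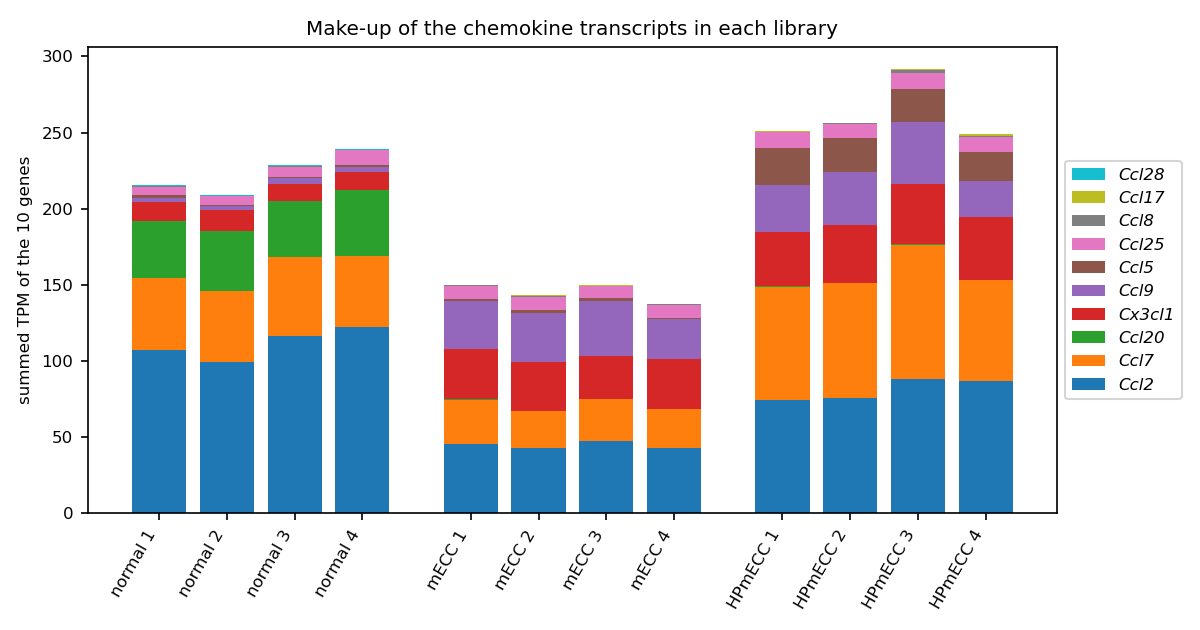
Stacked bars give the deposited TPM of the 10 chemokine genes in each of the 12 libraries, with 1 bar per library and 1 color per gene. The mECC bars are the shortest, at 138 to 150 TPM, the Ccl20 segment is visible in the 4 normal libraries, and the Ccl5 segment is broadest in the 4 HPmECC libraries.

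Of the 10 genes, 8 passed the filter on low counts and Ccl8 and Ccl17 were too low to test. Ccl5 passed the filter through HPmECC alone, and Ccl20 and Ccl28 through the normal cells alone, so a difference in these 3 genes was partly set by the filter. Between HPmECC and mECC, 5 of the 8 genes were higher in HPmECC by edgeR's quasi-likelihood test (Ccl2, Ccl5, Ccl7, Ccl20 and Cx3cl1) and 0 were lower. Over all 15283 genes tested, 33.8% were called higher and 34.5% lower in that comparison. Between mECC and normal cells, 2 genes were higher in mECC (Ccl9 and Cx3cl1) and 4 lower (Ccl2, Ccl7, Ccl20 and Ccl28), against a background of 42.1% higher and 44.2% lower. Between HPmECC and normal cells, 4 were higher (Ccl5, Ccl7, Ccl9 and Cx3cl1) and 3 lower (Ccl2, Ccl20 and Ccl28), against 43.0% and 43.3%. The median log2 fold change of the 8 genes was 0.95, -0.58 and 0.40 in these comparisons, beside 0.00, -0.02 and 0.00 over all genes. The comparisons share libraries, so their values are not independent of each other.

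**Figure D2:**
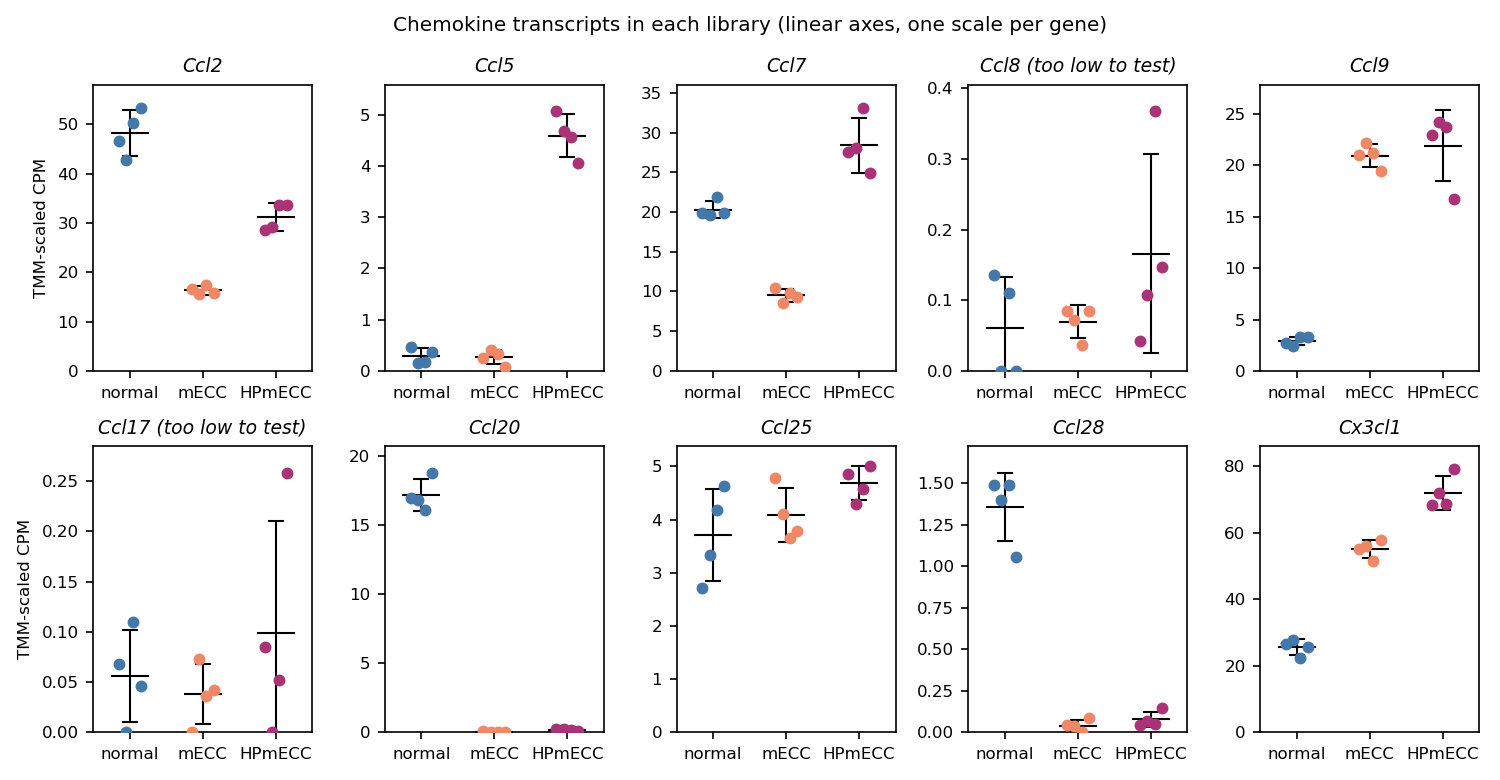
Each panel gives the TMM-scaled CPM of 1 chemokine gene in the 12 libraries on a linear axis starting at 0, with points for libraries, a horizontal bar for the mean and error bars for the SD over 4 libraries. Ccl20 and Ccl28 are high in the normal libraries only, Ccl5 in HPmECC only, and the 4 mECC libraries are the lowest for Ccl2 and Ccl7.

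Ccl2 and Ccl7, which both encode monocyte attractants acting on Ccr2, lie 8.3 kb apart on the plus strand of chromosome 11 (82035571 to 82037453 and 82045712 to 82047525 of GRCm38). Ccl2 was highest in normal cells, at 46.6, 42.8, 50.3 and 53.4 CPM, intermediate in HPmECC, at 28.5, 29.1, 33.5 and 33.6 CPM, and lowest in mECC, at 16.5, 15.5, 17.5 and 15.8 CPM. No library of one group overlapped another. HPmECC exceeded mECC 1.91-fold in Ccl2 (log2 0.93 ± 0.0743 SE, adjusted p = 2.3e-09 by edgeR). Against normal cells Ccl2 was 2.96-fold lower in mECC (edgeR adjusted p = 1.84e-13) and 1.55-fold lower in HPmECC (edgeR adjusted p = 5.48e-08). A gene model on the opposite strand, Gm17268, covers all of Ccl2 and had 0 counts in the 12 libraries.

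Ccl7 had a different order. It was highest in HPmECC, at 27.6, 28.1, 33.1 and 24.9 CPM, followed by normal cells, at 19.9, 19.6, 21.9 and 19.9 CPM, and by mECC, at 10.4, 8.58, 9.82 and 9.28 CPM. Again the groups did not overlap. HPmECC lay 1.39-fold above normal cells in Ccl7 (log2 0.48 ± 0.0769 SE, adjusted p = 1.25e-05 by edgeR), whereas it lay below them in Ccl2. mECC lay 2.14-fold below normal cells (edgeR adjusted p = 7.3e-10) and 2.97-fold below HPmECC. The ratio of Ccl2 to Ccl7, both in TPM, was 2.14 to 2.63 in the normal libraries, 1.54 to 1.78 in mECC and 0.992 to 1.32 in HPmECC, with no overlap. HPmECC replicate 4 gave the 1.32, and the other 3 HPmECC libraries gave 0.992 to 1.01. In that library Ccl7 was the lowest of its group, at 66.07 TPM. Ccl2 was at 86.99 TPM there, just below the 87.85 TPM of replicate 3.

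Ccl8, the gene of another monocyte attractant, starts 79.6 kb from Ccl2 in the same cluster (82115185 to 82116799). It had 2, 0, 2 and 0 counts in the normal libraries, 2, 2, 1 and 2 in mECC and 1, 3, 7 and 4 in HPmECC, too few for a test. Its neighbors Ccl11 and Ccl12 were also at or near 0, with at most 8 counts over any group. In a fit without the filter on low counts, Ccl8 was not called in any of the 3 comparisons (lowest edgeR adjusted p = 0.157).

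Ccl5, whose protein attracts T cells and monocytes, was found mainly in HPmECC. The HPmECC libraries held 119, 131, 87 and 110 counts of Ccl5 (5.07, 4.68, 4.57 and 4.05 CPM). The mECC libraries held 6, 11, 9 and 2 counts and the normal libraries 7, 3, 3 and 8. HPmECC exceeded mECC 16.5-fold in Ccl5 (log2 4.04 ± 0.265 SE, adjusted p = 1.42e-10 by edgeR) and 15.8-fold higher than in normal cells (edgeR adjusted p = 1.4e-10). Between mECC and normal cells Ccl5 was not called, with an edgeR adjusted p = 0.909 and a 95% interval of the log2 fold change from -0.98 to 0.87, so differences of nearly 2-fold either way were not excluded.

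Ccl9, a mouse chemokine that binds Ccr1, lies 42.4 kb from Ccl5 on the minus strand of chromosome 11 (Ccl9 at 83572919 to 83578636, Ccl5 at 83525778 to 83530518). It separated both cancer lines from normal cells. Ccl9 stood at 2.71, 2.39, 3.25 and 3.26 CPM in the normal libraries, at 21, 22.2, 21.2 and 19.4 CPM in mECC and at 22.9, 24.2, 23.8 and 16.8 CPM in HPmECC. Every cancer line library was above every normal library, and the lines overlapped each other. mECC was 7.17-fold (log2 fold change 2.84, SE 0.133) and HPmECC 7.47-fold (2.90, SE 0.133) above normal cells, with edgeR adjusted p = 1.99e-13 and 1.4e-13. Between the lines Ccl9 was not called (edgeR adjusted p = 0.59, 95% interval of the log2 fold change -0.13 to 0.25). Without HPmECC replicate 4, the lowest of its group, the lines differed by 0.18 on the log2 scale, which was called (edgeR adjusted p = 0.0198).

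Ccl6, the gene next to Ccl9 at a distance of 9.2 kb (83587882 to 83593087), went the other way. Normal cells held 764, 965, 807 and 1158 counts of Ccl6 (49.9 CPM on average). The mECC libraries held 7 counts in all, 673-fold fewer by the fit (edgeR adjusted p = 4.15e-17). HPmECC held 0, which puts it at least 1630-fold lower with a floor of 3 counts over the group. Ccl6 and Ccr1 are mainly genes of myeloid cells, and of 15 leukocyte markers the 10 that could be tested were all lower in both lines than in normal cells. Over all genes tested, 44.2% were lower in mECC and 43.3% in HPmECC. Ccl6 and several of these markers, among them Lyz2 and Tyrobp, passed the filter on low counts through normal cells alone. Their difference from normal cells was thus partly set by the filter. The myeloid genes Lyz2 and Tyrobp stood at 96.7 and 4.56 CPM in normal cells, Tyrobp had 0 counts in both lines, and Ptprc, the pan-leukocyte gene, stood at 1.16 CPM in normal cells with 2 counts in mECC and 0 in HPmECC. The part of leukocyte RNA in the Ccl6 level was not tested. The plot of levels along the clusters shows Ccl9 and Ccl6 side by side with opposite orders.

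**Figure D3:**
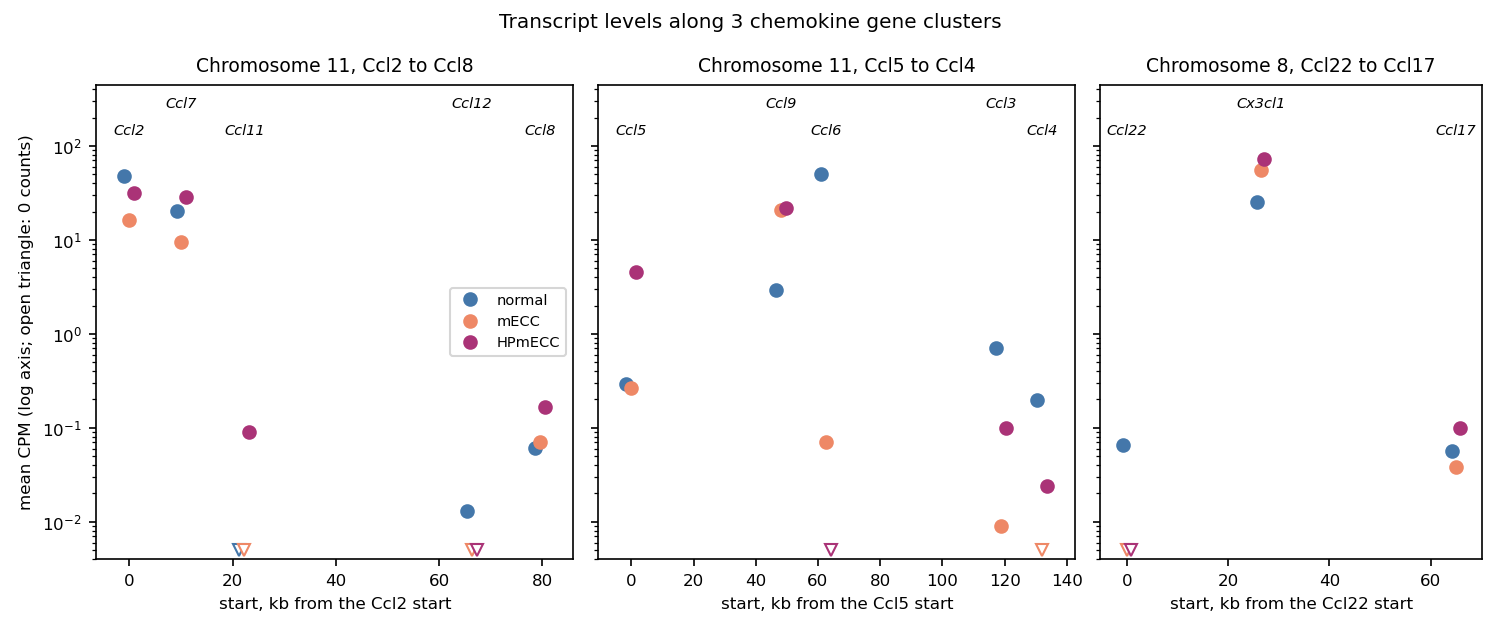
Mean TMM-scaled CPM of chemokine genes, on a log axis, is plotted against the distance of each gene's start from the first gene of its cluster in kb, with groups set slightly apart sideways and open triangles at the bottom for 0 counts. In the Ccl5 cluster Ccl9 is higher in both cancer lines than in normal cells while Ccl6, 9.2 kb away, is at 49.9 CPM in normal cells and at or near 0 in the lines.

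Cx3cl1, the fractalkine gene on chromosome 8 (94772009 to 94782427), was the member with the highest CPM in both cancer lines, although CPM is not scaled to length. It stood at 26.5, 27.8, 22.3 and 25.5 CPM in normal cells, 55.0, 56.1, 51.5 and 57.6 CPM in mECC and 68.2, 72.0, 68.6 and 79.1 CPM in HPmECC. The order normal, mECC, HPmECC held without overlap between any libraries. mECC was 2.16-fold above normal cells (log2 1.11 ± 0.0628 SE, adjusted p = 4.05e-12 by edgeR), and HPmECC 2.82-fold (95% interval of the fold 2.58 to 3.09, edgeR adjusted p = 2.7e-14). The step from mECC to HPmECC was smaller, at 1.31-fold (0.39, SE 0.0542, edgeR adjusted p = 3.87e-06). Per length, Cx3cl1 stood at 31.5 ± 2.25 TPM in mECC and 38.4 ± 2.32 TPM in HPmECC, next to 26.7 ± 2.21 and 75.9 ± 9.35 TPM for Ccl7 (SD, n = 4). Ccl2 was above Cx3cl1 on this scale, at 44.6 ± 2.29 TPM in mECC and 81.3 ± 7.07 TPM in HPmECC. Endothelium is a known source of fractalkine, and the summed TPM of 8 endothelial markers was 53.0 to 58.3 in normal cells, 8.62 to 9.92 in mECC and 25.1 to 27.3 in HPmECC. All 6 endothelial markers that could be tested were lower in mECC than in normal cells, and in HPmECC 5 were lower and 1, Egfl7, was higher. Between the lines 3 were higher in HPmECC, as Cx3cl1 was (Egfl7 at 10.7 against 3.64 CPM, Kdr at 6.20 against 3.40 CPM and Vwf at 0.818 against 0.304 CPM), and 2 were lower (Cdh5 and Tek, both with 0 counts in HPmECC and 4 in mECC). Cdh5 and Tek, among others, passed the filter through normal cells alone, so their difference from normal cells was partly set by it. Both lay below the filter's minimum in the lines. Over all genes tested, 44.2% were lower in mECC and 43.3% in HPmECC than in normal cells. Between the lines 33.8% of all genes were higher and 34.5% lower in HPmECC. The part of endothelial RNA in the Cx3cl1 level was not tested.

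Ccl17, a ligand of Ccr4, lies 28.0 kb beyond Cx3cl1 (94810453 to 94812036) and was too low to test. It had 1, 0, 2 and 1 counts in the normal libraries, 0, 2, 1 and 1 in mECC and 2, 0, 1 and 7 in HPmECC. Without the filter it was not called in any comparison (lowest edgeR adjusted p = 0.326). Ccl22, the third gene of the cluster, 20.3 kb on the other side of Cx3cl1, had 5 counts in the normal group and 0 in both lines. Of the genes in this cluster, only Cx3cl1 could be tested.

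Ccl20 and Ccl28, known as chemokines of mucosal epithelium, were expressed in the normal cultures and close to absent in both cancer lines. Ccl20 (chromosome 1, 83116766 to 83119167) had 250, 324, 292 and 409 counts in the normal libraries (16.1 to 18.8 CPM), 2, 0, 0 and 1 in mECC and 5, 6, 3 and 3 in HPmECC. The ratio of normal cells to mECC was 586 from the scaled counts, with an exact 95% counting interval of 200 to 2850. HPmECC was 95.7-fold below normal cells (log2 -6.58 ± 0.187 SE, adjusted p = 8.55e-17 by edgeR). Between the lines Ccl20 was called higher in HPmECC (edgeR adjusted p = 0.00332) on 17 against 3 counts, a ratio of 5.92 with a counting interval of 1.71 to 31.5. Ccl20 reached the filter's minimum in 0 libraries of either line, so a fit of the lines alone does not test it and calls 4 chemokine genes higher in place of 5. The difference also leans on single libraries: its fitted log2 value was 2.36 with all libraries, 3.30 without mECC replicate 1 and 1.97 without mECC replicate 2 or 3, and that of mECC against normal cells went from -8.94 to -9.88 without mECC replicate 1.

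Ccl28 (chromosome 13, 119623819 to 119654359) showed the same side at a far lower level. It had 22, 27, 27 and 23 counts in the normal libraries, 1, 1, 0 and 2 in mECC and 1, 2, 1 and 4 in HPmECC. It was 30.2-fold lower in mECC (log2 -4.92 ± 0.435 SE, adjusted p = 3.68e-09 by edgeR) and 15.5-fold lower in HPmECC (-3.96, SE 0.387, edgeR adjusted p = 1.58e-08). Between the lines it was not called, on 8 against 4 counts (edgeR adjusted p = 0.266). Of the 10 epithelial markers 9 were lower in mECC than in normal cells and 10 were lower in HPmECC, beside 44.2% and 43.3% over all genes tested. Krt19 was at 328 CPM in normal cells and 330 CPM in mECC. The part of epithelial content in the Ccl20 and Ccl28 levels was not tested.

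The bases upstream of Ccl20, Ccl28 and Ccl9 are printed. Among the 7 members with a promoter to search, these 3 had a match of the pattern marked below. The first pair was lower and the third higher in both lines than in normal cells. Cx3cl1 was also higher in both lines, and its promoter had no match. They are the 250 bases before the RefSeq start on GRCm38.p6, at chr1:83116516-83116765 on the plus strand, chr13:119623569-119623818 on the plus strand and chr11:83578637-83578886 on the minus strand. Capitals mark matches, on either strand, of a loose pattern for NF-kB sites: GGG and CC with any 5 bases between them.
Ccl20: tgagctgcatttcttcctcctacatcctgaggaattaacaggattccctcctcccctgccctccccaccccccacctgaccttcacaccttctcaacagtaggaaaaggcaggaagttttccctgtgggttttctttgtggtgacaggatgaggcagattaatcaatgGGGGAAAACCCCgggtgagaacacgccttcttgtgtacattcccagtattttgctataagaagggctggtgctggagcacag
Ccl28: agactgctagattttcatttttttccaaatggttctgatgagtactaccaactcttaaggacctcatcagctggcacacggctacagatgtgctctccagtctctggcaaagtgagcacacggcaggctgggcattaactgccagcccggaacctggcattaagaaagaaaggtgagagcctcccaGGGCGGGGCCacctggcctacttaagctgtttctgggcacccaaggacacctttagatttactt
Ccl9: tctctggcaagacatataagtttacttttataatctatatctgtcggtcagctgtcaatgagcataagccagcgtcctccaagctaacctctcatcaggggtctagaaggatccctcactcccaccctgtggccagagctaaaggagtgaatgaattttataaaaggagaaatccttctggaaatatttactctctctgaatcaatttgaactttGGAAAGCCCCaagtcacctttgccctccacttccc
In Ccl20 there were overlapping matches from base -82 to base -71 before the start, in Ccl28 a match from -64 to -55 and in Ccl9 from -35 to -26. The pattern occurred in 45.8% of the 32851 RefSeq promoters, so a match is common. RefSeq gave 8 promoters for 7 of the members, and 3 of the 8 had it. The set used held no promoter for Ccl2, Ccl5 and Ccl7, so these were not searched for any pattern. A stricter NF-kB pattern, GGANTTTCC, occurred in 1.07% of all promoters and in 0 of the 8. The AP-1 letters TGANTCA, in 6.75% of all promoters, occurred in Ccl9 only among them, and the E-box CACGTG that Myc can bind, in 6.02% of all promoters, in 0 of the 8.

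Ccl25, known as the ligand that brings Ccr9-bearing lymphocytes to thymus and gut, was not called between any groups in the reported fit. Its gene (chromosome 8, 4325210 to 4360020) overlaps Elavl1 on the opposite strand by 204 bases, and since no strand setting is given, reads there cannot be assigned with certainty. Elavl1 stood at 110 CPM in normal cells, 94.4 CPM in mECC and 93.2 CPM in HPmECC. Ccl25 had 2.71, 3.33, 4.19 and 4.64 CPM in the normal libraries, 4.79, 4.11, 3.66 and 3.79 CPM in mECC and 4.86, 4.29, 4.57 and 5.01 CPM in HPmECC. All groups overlapped. The comparisons gave edgeR adjusted p = 0.209 between the lines, 0.473 for mECC and 0.0526 for HPmECC against normal cells. The last has a 95% interval of the log2 fold change from 0.01 to 0.62, and it was called under 8 of 22 other settings, among them library totals (0.51, edgeR adjusted p = 0.00319). mECC against normal cells was called under 3 of 22, with library totals (0.35, edgeR adjusted p = 0.0311) and with limma on log2(TPM + 1) and log2(TPM + 0.1) (adjusted p = 0.0277 and 0.0282).

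**Figure D4:**
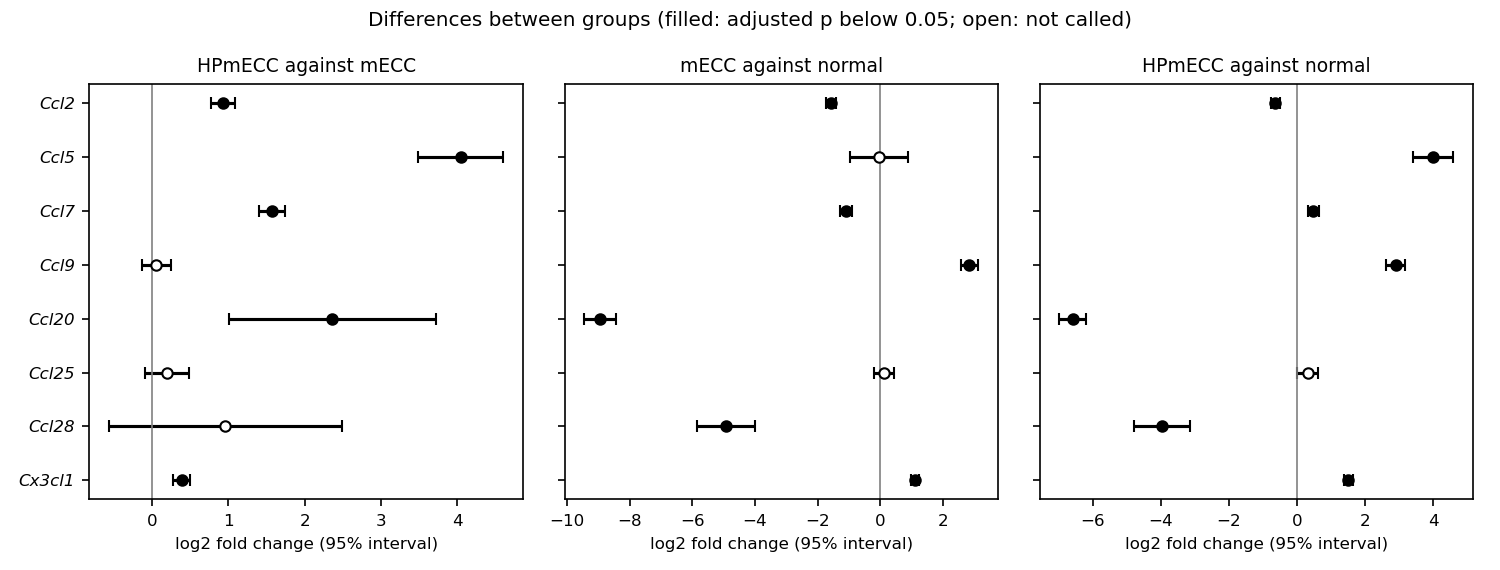
Points give the edgeR log2 fold change of the 8 chemokine genes that could be tested in each comparison, with 95% intervals, filled where the adjusted p passed 0.05 and open where it did not. The x axes differ between panels. Ccl5 has the largest difference between the lines (4.04), Ccl20 the largest against normal cells (-8.94 in mECC), and all 3 Ccl25 points are open.

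Receptors for these ligands were close to absent from the cancer lines. Of 11 receptor genes, 9 were too low to test, and the 11 together reached at most 1.84 TPM in any library. Ccr1, a receptor of Ccl5, Ccl7 and Ccl9, had 85 counts in the normal group and 0 in both lines, at least 39.1-fold lower in mECC and 37.4-fold lower in HPmECC with a floor of 3 counts over the group. Ccr2, the receptor of Ccl2, had 0 counts in both lines and 1 in normal cells, and Cx3cr1, the fractalkine receptor, had 5 counts in mECC and 2 each in HPmECC and the normal cultures. Ccr10, which binds Ccl28, was called higher in both lines than in normal cells, on 52 counts in mECC and 34 in HPmECC against 3 (ratios 12.6, counting interval 4.07 to 62.9, and 8.58, interval 2.70 to 43.7). Ccr10 did not reach the filter's minimum in normal cells, and Ccr1 reached it in normal cells alone. Their differences from normal cells were thus partly set by the filter. Among 5 genes listed as atypical receptors, Ackr3 was 2.66-fold higher in mECC and 2.89-fold higher in HPmECC than in normal cells (35.7, 38.7 and 13.4 CPM). Ackr3 is known to bind CXC ligands, Ccrl2 was 10.3-fold and 10.6-fold lower in the lines, and the other 3 were too low to test. Ccrl2 also passed the filter through normal cells alone.

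Of 12 further CC chemokine genes outside the members, 10 were too low to test. Besides Ccl6, Ccl27a could be tested. It stood at 1.43 CPM in normal cells, 3.90 CPM in mECC and 2.88 CPM in HPmECC, and was called in all 3 comparisons (highest edgeR adjusted p = 0.0209). Near-identical copies of Ccl27a are known in the mouse genome, so its counts are uncertain.

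The 9 genes of enzymes that act on chemokines, and of their regulators, could all be tested. Adam10 and Adam17, the proteases known to release fractalkine from the cell surface, stood at 227 and 104 CPM in mECC, 177 and 94.7 CPM in HPmECC and 171 and 85.9 CPM in normal cells. Both were lower in HPmECC than in mECC, by 1.28-fold and 1.10-fold (edgeR adjusted p = 2.79e-09 and 3.09e-04), while Cx3cl1 was higher. Of the 9 processing genes 2 were higher and 5 lower in HPmECC than in mECC, beside 33.8% and 34.5% over all genes tested. Against normal cells 3 were higher and 6 lower in mECC, beside 42.1% and 44.2%, and 3 higher and 5 lower in HPmECC, beside 43.0% and 43.3%. Mmp2, a matrix protease that can trim Ccl7, had the largest difference between the lines and was 7.54-fold higher in HPmECC (260 against 34.6 CPM). Dpp4, a peptidase that clips the ends of several chemokines, was 17.8-fold lower in mECC and 16.1-fold lower in HPmECC than in normal cells (0.498, 0.561 and 9.13 CPM).

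Ccl2, Ccl20 and Cx3cl1 are textbook targets of NF-kB, and 23 genes of that pathway and of cytokine receptors upstream of it were all expressed well enough to test. Between HPmECC and mECC 7 were higher and 12 lower, beside 33.8% higher and 34.5% lower over all genes tested. Of the called genes among the 23, 0 reached 2-fold, and the median log2 fold change of the 23 was -0.08. The largest differences among those called were in the interferon gamma receptor gene Ifngr1 (1.90-fold lower in HPmECC) and Ikbkg, a subunit of the kinase that frees NF-kB (1.83-fold lower). Against normal cells 9 were higher and 12 lower in mECC (median -0.19), and 9 higher and 13 lower in HPmECC (median -0.26). Over all genes tested, 42.1% were higher and 44.2% lower in mECC, and 43.0% higher and 43.3% lower in HPmECC. Tnfaip3 and Nfkbiz had the largest differences from normal cells among the 23 genes. Tnfaip3 was 6.17-fold lower in mECC and 7.70-fold lower in HPmECC, from 93.9 CPM in normal cells, and Nfkbiz was 4.94-fold and 8.15-fold lower, from 129 CPM. Irf1 went the other way, from 22.4 CPM in normal cells to 84.1 CPM in mECC and 67.9 CPM in HPmECC. At least 2-fold lower were 5 genes in mECC and 4 in HPmECC, and at least 2-fold higher 2 and 1. The part of NF-kB activity in the chemokine levels was not tested.

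Across the 12 libraries, the genes whose log2 CPM followed a member most closely were Msn and Psmb8 for Ccl2 (Pearson r = 0.991 for both), Ptgr1 and Slc4a7 for Ccl7 (0.991 and 0.989), and Hps4 and Rnf157 for Ccl9 (0.997 and 0.996). For Cx3cl1 they were Srsf9 and Fas (0.997 and 0.995), and for Ccl5 Ddx27 and Cd109 (0.993 and 0.989). Ajuba and Ipmk followed Ccl20 (1.000 and 0.999), and Ss18 and Klhl21 followed Ccl28 (0.995 and 0.994). Ccl25 had no such close match, with Nnt at 0.900 and Mrpl50 at 0.799. The 12 points fall into 3 groups of libraries, so these values mostly describe the order of the group means. Between members, Ccl2 and Ccl7 had r = 0.74 over the same 12 libraries and Ccl9 and Cx3cl1 r = 0.94.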

How the data were processed

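The authors deposited estimated counts and TPM values per gene. The submitters' processing notes name Trim Galore, STAR 2.6.1a, RSEM 1.3.1 and build GRCm38, and per the labels' protocols libraries were made with a TruSeq mRNA kit. Neither annotation release nor strand setting is given in the sources used here. RSEM shares ambiguous reads between genes by estimated abundance. The deposited counts were whole numbers, so rounding changed 0 values. The deposited TPM values are relative to transcript length and to each library's sum, so they served for levels between genes and for alternatives.

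Of 55385 identifiers 55144 matched a symbol. Groups were compared in R 4.3.3 by edgeR 4.0.16 (quasi-likelihood test, 1 coefficient per group over 12 libraries, TMM factors, filterByExpr with a minimum of 10 counts). P-values were Benjamini-Hochberg adjusted over the 15283 genes tested, with a threshold of 0.05. SEs come from the F statistic. The biological coefficient of variation was 4.27%. For a group at 0 the bound uses 3 counts in the whole group, and with 1 to 3 counts the ratio has an exact 95% interval. Both cover counting error only, because the reads carry no molecular identifiers.

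The members and gene lists were chosen with earlier results of these data known. From each list the text names up to 2 called genes, those changing most among genes that reach 5 CPM in either group. It also names, for each tested member, the 2 genes of at least 5 CPM with the closest log2(CPM + 0.5) pattern. Adam10, Adam17, Ccl27a, Ccrl2, Ccr1, Ccr10, the overlapping gene Elavl1, the cell type markers named (Epcam, Krt19, Lyz2, Tyrobp, Ptprc, Cdh5, Tek, Egfl7, Kdr and Vwf) and genes near 0 stand outside that rule and were chosen after their values were seen. The same holds for Irf1 and for the epithelial markers Krt7, Krt8, Krt18, Cdh1, Cldn4 and Muc1. Other settings tried were library totals, median-of-ratios factors, other filters, DESeq2 1.42.0, limma 3.58.1 on log2(TPM + 1) and log2(TPM + 0.1), fits of 2 groups, replicate blocks, a required log2 change of 1, and leaving out each library. Gene positions came from GENCODE M21, promoters from RefSeq, and Python 3.11.15 with Biopython 1.88 and matplotlib 3.10.9 was used. The test was checked on simulated data.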

Additional observations from a re-analysis of the deposited data

Results flagged for a closer look

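Among 24 pairs of a tested chemokine gene and a group, 2 had a library far from the other 3, and chance gives about 1 in 20. Ccl7 in normal replicate 3 reached 21.9 CPM, whereas the other normal libraries had 19.6 to 19.9 CPM. Without that library Ccl7 was called in the same direction in all 3 comparisons. Ccl9 in HPmECC replicate 4 was at 16.8 CPM, below the 22.9 to 24.2 CPM of the remaining HPmECC libraries. Without it Ccl9 was called higher in HPmECC than in mECC, with a log2 fold change of 0.18 (edgeR adjusted p = 0.0198).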

How the results depend on the processing

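The counts of chemokine genes called higher or lower stayed within 1.5 times of the reported ones in every setting run but a required minimum log2 fold change of 1, under which 2 genes in place of 5 were called higher in HPmECC than in mECC. With libraries left out in turn, that count was 5 to 6. The same-numbered libraries of different groups did not deviate together (r from -0.044 to 0.081 over 12 pairs), and the replicate block of 4 levels left 5 genes higher and 0 lower between the lines, and changed no call of a member. Ccl5 between mECC and normal cells, never called, turned from -0.06 to 0.18 with library totals, to 0.069 with log2(TPM + 1) and to 0.092 with log2(TPM + 0.1). It also turned without normal replicate 1 (0.21), normal replicate 4 (0.12) or mECC replicate 4 (0.218), within a range of -0.31 to 0.218 over the libraries left out; the cause was not tested. Library totals moved the median of all genes to 0.22 in mECC and 0.20 in HPmECC against normal cells, and the Ccl25 value of 0.51 there includes that shift. On the log2(TPM + 1) scale, which understates changes of low genes, Ccl20 and Ccl28 stood at -5.20 and -0.60 for mECC against normal cells. Depth limits Ccl8, Ccl17, Ccl28 and, in the lines, Ccl20.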

Other observations

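The ratio of counts to TPM gives the transcript length that the authors' quantification implied for a gene, here relative to the median gene of each library. For Ccl9 the normal cells had 0.583 ± 0.0491, mECC had 0.481 ± 0.0482 and HPmECC had 0.470 ± 0.0457 (SD, n = 4). For Ccl2 it was 0.265 ± 0.0012, 0.263 ± 0.0011 and 0.265 ± 0.0007, and for Ccl7 0.259 ± 0.0011, 0.257 ± 0.0005 and 0.259 ± 0.0007. The log2 ratio of the group means of Ccl9 in mECC against normal cells was 3.37 from TPM and 2.85 from scaled counts. For Ccl2, whose implied length hardly differed, these ratios were -1.32 and -1.565, so a difference between the scales was also present without one in length. The scaled counts include the TMM factor and the TPM values do not. That factor was 1.061 to 1.076 in mECC and 0.9007 to 0.9075 in normal cells.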
